A study of Mus musculus with 4 samples.

Results

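The TAM receptors Mertk, Axl and Tyro3 and their bridging ligands Gas6 and Pros1 were taken as a listed set of 5 genes from the 52636 genes measured in each library, and all 5 were found by symbol. RNA was measured by bulk RNA-seq in cells of the corpus callosum, the white matter tract that joins the cerebral hemispheres, of mice labelled Mertk_KO that ate chow with 0.2% cuprizone for 4 weeks. Cuprizone is a copper chelator that kills oligodendrocytes, the cells that make myelin. AnnexinV-positive (dying) cells were compared with AnnexinV-negative (living) cells, with 2 libraries each. Annexin V is a protein that binds phosphatidylserine, a lipid that dying cells expose on their outer surface. Every library carries the Mertk knockout and the cuprizone diet, so the knockout and the diet are shared by both groups and neither can be measured here. The labels give no allele, strain, sex or age, and do not say whether the replicates came from separate or pooled animals. The p-values therefore cover the spread among 4 libraries, part or all of which may be technical.

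TAM receptors are receptor tyrosine kinases. Gas6 and protein S (the product of Pros1) are secreted proteins with an amino-terminal domain that, once its glutamates are carboxylated with the help of vitamin K, binds phosphatidylserine on a dying cell, while the other end of the protein binds a TAM receptor on a phagocyte. Gas6 binds all TAM receptors, whereas protein S binds Tyro3 and Mertk and is not a ligand of Axl. In the brain Mertk and Axl are known from microglia, Mertk also from astrocytes, and Tyro3 from neurons and oligodendrocytes.

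In dying cells Tyro3 fell by 4.53 on the log2 scale, to 0.0553 and 0.234 RPKM, while the other 4 genes were read at high levels in every library. On the deposited scale Axl (1.49), Mertk (1.28), Pros1 (1.11) and Gas6 (0.83 as log2 fold change) rose. These 4 rises did not pass the test on the TPM scale or when libraries were centred on markers of homeostatic microglia, where the values of Gas6 and Pros1 turned to -0.29 and -0.01. The fall of Tyro3 passed on each of the 4 scales. Rises and falls here are differences between bulk AnnexinV groups, in which fewer cells of a type and less RNA per cell cannot be told apart.

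Values were RPKM (reads scaled by gene length and library size), as scaled by the authors. Estimated from the deposited values, the reads in genes per library ran, in units of 1000 reads, from 43254 to 67460, so that a single read over 1 kb of exon corresponds to 0.00833 to 0.0116 RPKM. Genes were called changed at an adjusted p under 0.05 (limma on log2(RPKM + 0.1), Benjamini-Hochberg over the 10927 genes that reached an RPKM of 1 in 2 or more libraries). On the deposited scale the genes tested were shifted together, with a median log2 fold change of 0.45. The median was 0.13 with each library centred on its median over the genes tested, -0.32 on the TPM scale and -0.68 after centring on the microglia markers. Fold changes of low genes are understated by the pseudocount of 0.1.

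Mertk (a protein-coding gene, ENSMUSG00000014361, on the plus strand of chromosome 2 from 128698956 to 128802894 in GRCm38) encodes the receptor through which microglia and other phagocytes take up dying cells. It was at an RPKM of 62.6 and 53.6 in AnnexinV-positive and 18.8 and 29.9 in AnnexinV-negative libraries. Both AnnexinV-positive values lay above both AnnexinV-negative ones. These values come from mice labelled as knockout. They sum reads over the whole gene, do not separate deleted from remaining exons, and have no wild-type library beside them, so they do not check the genotype. No exon of Mertk shares bases with another annotated gene, although the antisense gene Gm14011 and the small nucleolar RNA gene Gm23172 lie within its span. The mean went from 24.4 ± 7.86 to 58.1 ± 6.34 RPKM (SD, n = 2 each), a log2 fold change of 1.28 (SE 0.25, 95% interval 0.69 to 1.88, limma adjusted p 0.00920). The libraries overlapped on the TPM scale, at 312 and 246 against 153 and 248, and the log2 fold change of 0.51 had an interval from -0.12 to 1.14 (limma adjusted p 0.210).

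Axl (a protein-coding gene, ENSMUSG00000002602, on the minus strand of chromosome 7 from 25757273 to 25788705 in GRCm38) encodes the TAM receptor that inflamed phagocytes raise. It was at an RPKM of 143 and 123 in AnnexinV-positive and 37.3 and 60.0 in AnnexinV-negative libraries, the highest of the 3 receptors in every library. The groups did not overlap. The log2 fold change was 1.49 (SE 0.26, 95% interval 0.88 to 2.09, limma adjusted p 0.00615), which ranked 151 from the top of the 10927 genes tested. Rescaled to TPM the values were 714 and 565 against 304 and 497, again without overlap, and the log2 fold change of 0.71 (95% interval 0.08 to 1.34) had a limma adjusted p of 0.105.

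Tyro3 (a protein-coding gene, ENSMUSG00000027298, on the plus strand of chromosome 2 from 119797733 to 119818104 in GRCm38) was the receptor at the lowest level. It was at an RPKM of 0.234 and 0.0553 in AnnexinV-positive and 5.66 and 4.73 in AnnexinV-negative libraries. In reads, which are approximate because the authors' gene length is not given, this was about 144 and 29.5 against 4217 and 2841. Both living-cell libraries lay far above both dying-cell libraries, and the dying-cell replicates differed from each other several-fold at these low counts. The log2 fold change of -4.53 (SE 0.40, 95% interval -5.47 to -3.59, limma adjusted p 7.67e-04) ranked 54 from the bottom of the genes tested. It was -4.85, -5.99 and -5.65 with libraries centred on the genes tested, on the TPM scale and centred on the microglia list, and passed the test in each (limma adjusted p 6.57e-04, 6.58e-04 and 4.17e-04). Its size depended on the pseudocount, since it was -5.36 with 0.01 and -2.44 with 1.

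**Figure D1:**
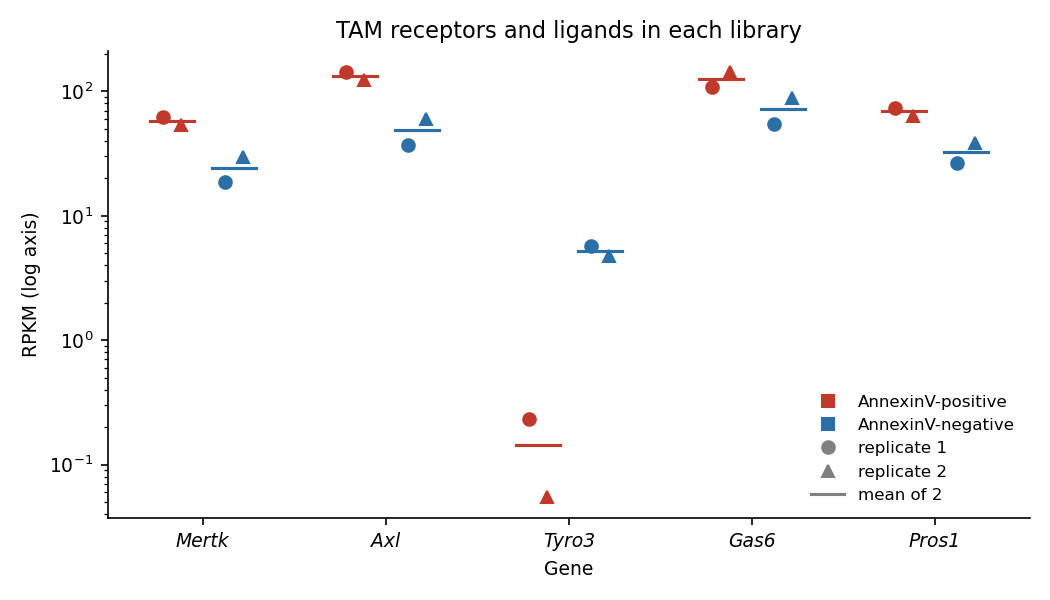
RPKM of the 5 genes (horizontal axis) in each of the 4 libraries on a log axis, in red for AnnexinV-positive and blue for AnnexinV-negative, with circles for replicate 1, triangles for replicate 2 and a bar at the mean of 2. Tyro3 sits at 0.0553 and 0.234 in AnnexinV-positive libraries, below its AnnexinV-negative values of 4.73 and 5.66, while the other 4 genes lie above 18 in all libraries.

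Gas6 (a protein-coding gene, ENSMUSG00000031451, on the minus strand of chromosome 8 from 13465374 to 13494490 in GRCm38) encodes the ligand shared by all 3 receptors. It was at an RPKM of 108 and 143 in AnnexinV-positive and 55.1 and 88.8 in AnnexinV-negative libraries. The groups did not overlap, but the gap between the lowest AnnexinV-positive and the highest AnnexinV-negative value was smaller than the difference within either pair. Gas6 shares 34 exon bases with Tmem255b on the opposite strand, and the library kit does not keep strand. The log2 fold change of 0.83 (SE 0.27, 95% interval 0.18 to 1.47) passed narrowly (limma adjusted p 0.0480). It did not pass without AnnexinV-positive replicate 2 (0.63, limma adjusted p 0.201) or without AnnexinV-negative replicate 1 (0.48, limma adjusted p 0.152), and was 0.05 on the TPM scale (limma adjusted p 0.903).

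Pros1 (a protein-coding gene, ENSMUSG00000022912, on the plus strand of chromosome 16 from 62854307 to 62929346 in GRCm38) encodes protein S, which is also known as an anticoagulant of the blood. It was at an RPKM of 73.9 and 63.9 in AnnexinV-positive and 26.4 and 38.2 in AnnexinV-negative libraries. The groups did not overlap, and replicate 1 was the higher of the AnnexinV-positive pair and the lower of the AnnexinV-negative pair, as for Mertk and Axl. The log2 fold change was 1.11 (SE 0.23, 95% interval 0.58 to 1.65, limma adjusted p 0.0105). With libraries centred on the genes tested it was 0.80, at the edge of the threshold (limma adjusted p 0.04998), and on the TPM scale 0.34 (95% interval -0.23 to 0.90, limma adjusted p 0.343).

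Counted together, 4 of the 5 genes rose and 1 fell on the deposited scale, where 30.8% of all genes tested rose and 9.26% fell. Without overlap between groups, 4 were higher and 1 lower, against 60.9% and 14.9% of all genes tested. Centred on the genes tested, 3 rose and 1 fell (all genes 10.4% and 10.8%). In TPM 0 rose and 1 fell (1.03% and 19.1%), as was the case centred on the microglia list (0.201% and 49.4%). At an unadjusted limma p under 0.05, 1 gene (Axl) was higher on the TPM scale and 0 centred on the microglia list. These shares show how far the scale alone moves the count in this comparison. The order of the fold changes is free of the scale apart from the pseudocount. Axl had a higher value than 98.6%, Mertk than 95.2%, Pros1 than 89.9% and Gas6 than 77.0% of the genes tested, and Tyro3 than 0.485%. These places depend on single libraries. Without AnnexinV-negative replicate 1 they were, in the same order, 90.8%, 83.5%, 78.5%, 53.6% and 0.384%. Without AnnexinV-negative replicate 2 they were 99.6%, 98.5%, 93.9%, 88.1% and 0.577%.

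**Figure D2:**
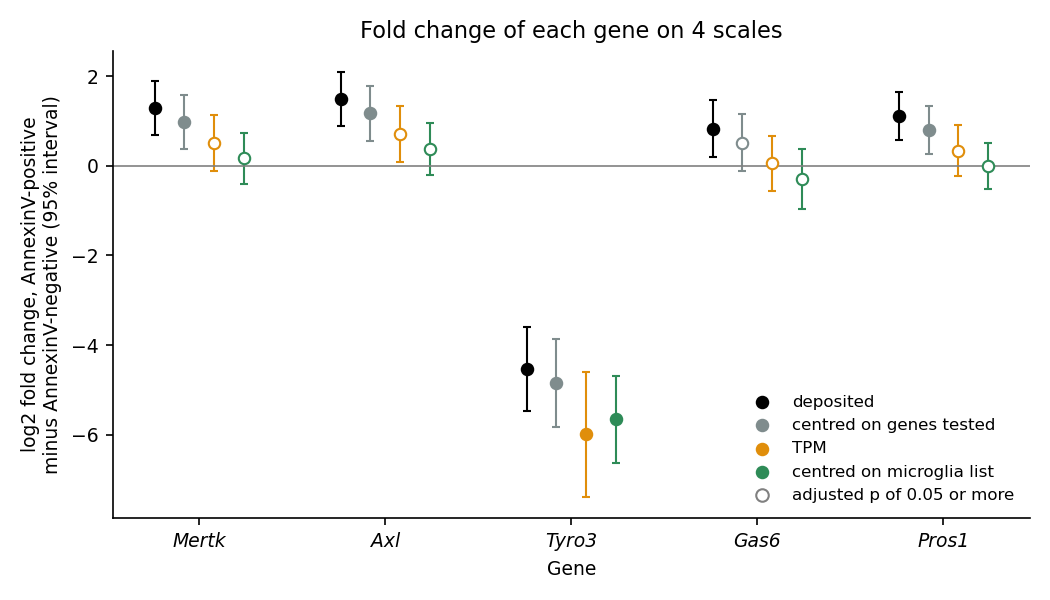
log2 fold change (AnnexinV-positive minus AnnexinV-negative) of each gene with its 95% interval from limma, on the deposited scale, with libraries centred on the genes tested, on the TPM scale and centred on the microglia markers; open symbols did not pass an adjusted p of 0.05. Tyro3 stays between -4.53 and -5.99, while the other 4 genes move toward 0 and are open on the last 2 scales.

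Ratios between the genes within a library do not depend on its scale. The ratio of Axl to Mertk RPKM was 2.29 and 2.30 in AnnexinV-positive and 1.99 and 2.01 in AnnexinV-negative libraries. The replicates of a group were close to each other (2.29 ± 0.00705 against 1.996 ± 0.0141, SD, n = 2 each) and the groups lay apart. The ratios are given as a description and were not tested. An exact two-sided permutation test of 2 libraries against 2 cannot give a p below 0.333. Axl made up 69.5% and 69.6% of the summed receptor RPKM in AnnexinV-positive and 60.4% and 63.4% in AnnexinV-negative libraries. Tyro3 made up 0.114% and 0.0313% against 9.17% and 4.998%. Mertk held nearly the same share in all libraries, between 30.3% and 31.6%.

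For the ligands the groups overlapped. Gas6 made up 59.4% and 69.1% of the summed ligand RPKM in AnnexinV-positive and 67.6% and 69.9% in AnnexinV-negative libraries. The difference in means (64.3 ± 6.85% against 68.8 ± 1.63%, SD, n = 2 each) was smaller than the spread of the AnnexinV-positive pair and turned to 0.329 percentage points higher without AnnexinV-positive replicate 1. The summed ligand RPKM divided by the summed receptor RPKM was 0.885 and 1.17 in AnnexinV-positive and 1.32 and 1.34 in AnnexinV-negative libraries.

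**Figure D3:**
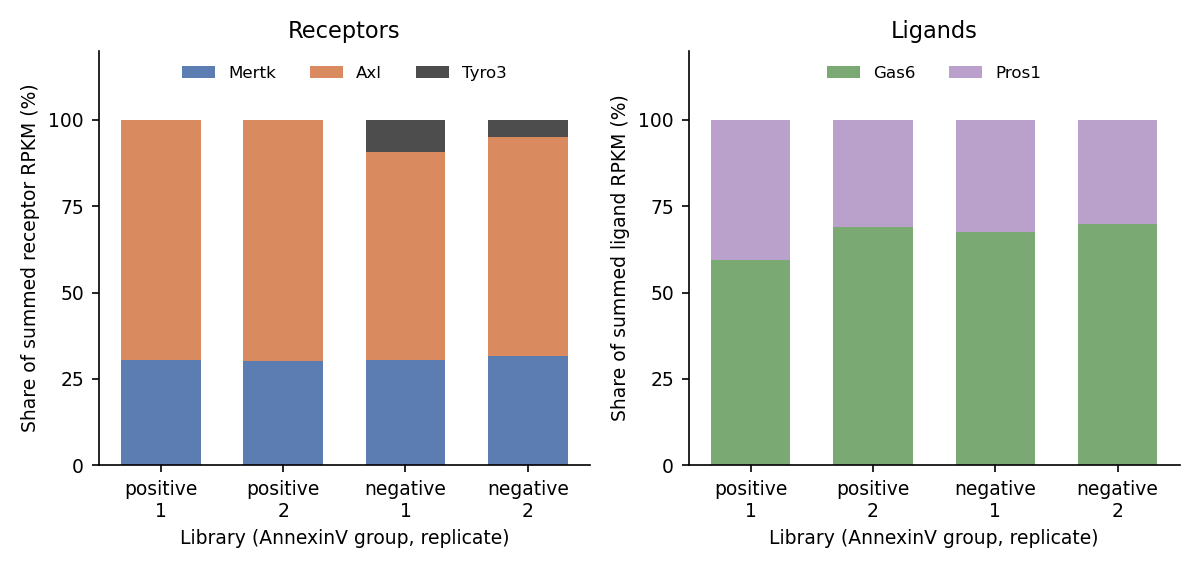
Share of each receptor in the summed RPKM of Mertk, Axl and Tyro3 (left) and of each ligand in the summed RPKM of Gas6 and Pros1 (right), in percent, for each library. Tyro3 is visible as 9.17% and 4.998% of the AnnexinV-negative bars and is under 0.2% of the AnnexinV-positive bars, and the Gas6 share overlaps between groups.

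The order of the 5 levels, per length, was Gas6, Axl, Pros1, Mertk, Tyro3 in both AnnexinV-negative libraries and AnnexinV-positive replicate 2, and Axl, Gas6, Pros1, Mertk, Tyro3 in AnnexinV-positive replicate 1. In dying cells Axl (133 ± 14.1 RPKM) and Gas6 (126 ± 24.5 RPKM, SD, n = 2 each) thus changed order between the libraries. In living cells Gas6 (72.0 ± 23.9 RPKM) was above Axl (48.7 ± 16.03 RPKM) in both libraries. The values there were 55.1 against 37.3 and 88.8 against 60.0 RPKM. Both genes were read in the same libraries, so these SDs do not measure the difference between them. Pros1 was above Mertk in every library, at 68.9 ± 7.10 against 58.1 ± 6.34 RPKM in dying and 32.3 ± 8.36 against 24.4 ± 7.86 RPKM in living cells (SD, n = 2 each), where the ranges of the pair overlapped in the living cells.

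Because the receptors moved apart, the 250 bases before their RefSeq gene starts (GRCm38.p6) are shown, each on the strand of its gene, with capitals for every GC box, the element bound by Sp1-type factors (letters GGGCGG, searched on both strands, so that it also appears as CCGCCC). The windows are chr7:25788734-25788983 (minus) for Axl, chr2:128698665-128698914 (plus) for Mertk and chr2:119799264-119799513 (plus) for Tyro3. The Tyro3 window lies inside the span given for the gene above, which starts at 119797733, so RefSeq places its start elsewhere. The bases before that other start were not searched. The Axl and Mertk windows lie outside their spans.
Axl: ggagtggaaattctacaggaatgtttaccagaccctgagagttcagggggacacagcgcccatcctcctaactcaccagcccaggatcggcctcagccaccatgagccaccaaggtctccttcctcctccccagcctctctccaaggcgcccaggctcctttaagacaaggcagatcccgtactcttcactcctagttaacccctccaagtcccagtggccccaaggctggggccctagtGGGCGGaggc
Mertk: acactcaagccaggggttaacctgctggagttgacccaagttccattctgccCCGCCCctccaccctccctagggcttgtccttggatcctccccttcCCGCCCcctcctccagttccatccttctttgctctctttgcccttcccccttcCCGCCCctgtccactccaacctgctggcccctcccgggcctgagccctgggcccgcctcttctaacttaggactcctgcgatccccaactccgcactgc
Tyro3: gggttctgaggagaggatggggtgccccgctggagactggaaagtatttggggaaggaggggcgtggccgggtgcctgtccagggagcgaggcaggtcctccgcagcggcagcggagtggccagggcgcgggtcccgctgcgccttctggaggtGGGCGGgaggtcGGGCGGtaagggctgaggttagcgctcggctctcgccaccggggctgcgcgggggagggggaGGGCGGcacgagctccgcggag

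A GC box was present in all 5 windows, with 1 match for Axl, 3 for Mertk, 3 for Tyro3, 4 for Gas6 and 5 for Pros1, and in 32.7% of the 32851 promoter windows of the same length. The core of the myeloid factor PU.1 (GAGGAA, both strands) was matched 1 time for Axl and 0 times for the other 4 (23.3% of all windows). The AP-1 letters TGANTCA were matched in none of the 5 (6.75% of all windows). The GC content was 73.2% for the Tyro3 window, which lies inside the gene span given above, 63.6% for Mertk and 60.0% for Axl. The median was 52.4% over all windows. The riser with the highest fold change and the gene that fell both hold the GC box, so these letters do not separate them. A match is a description of the sequence and does not show binding.

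Markers of several cell types moved with the groups, and their part in the TAM values was not tested. In bulk libraries fewer cells of a type and less RNA per cell cannot be told apart. All 13 markers of mature oligodendrocytes fell, with a median log2 fold change of -4.74 and a summed RPKM of 34.2 and 46.5 in AnnexinV-positive against 507 and 927 in AnnexinV-negative libraries. The value of Tyro3, -4.53, lies close to that median, but not to that median alone. The median was -4.53 for the 2 tested of 6 neutrophil markers, -4.19 for the precursor markers and -3.58 for the 3 tested of 10 neuron markers. The untested ones did not reach the RPKM minimum. S100a8, S100a9, Stmn2 and Tubb3 reached 1 RPKM only in AnnexinV-negative libraries, as did Tyro3 and several oligodendrocyte markers. Genes that pass the filter in this way can only be lower in AnnexinV-positive libraries. Of 7 tested precursor markers 6 fell (summed RPKM 16.7 and 19.0 against 125.3 and 159). Neuron markers fell in 2 of 3 tested (1.97 and 2.09 against 10.8 and 16.1), astrocyte markers in 7 of 9 (28.4 and 37.7 against 56.96 and 77.3), endothelial markers in 6 of 8 (8.69 and 12.6 against 43.2 and 45.1), and mural or fibroblast markers in 3 of 4 (5.48 and 13.1 against 25.8 and 39.7). Both tested neutrophil markers fell (0.388 and 0.544 against 7.35 and 15.9).

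All 14 homeostatic microglia markers rose on the deposited scale and 0 passed on the TPM scale (limma; 3 higher there at an unadjusted p under 0.05). Their median log2 fold changes were 1.196 and 0.42 on these scales, and their summed RPKM was 5577 and 5609 against 2182 and 2678. On the deposited scale the 14 markers ran from 0.85 (Sall1) to 1.33 (Selplg). Mertk (1.28) and Pros1 (1.11) lay within that span, Axl (1.49) above it and Gas6 (0.83) below it. All 3 tested border macrophage markers rose as well, with 0 on the TPM scale and 1 there at an unadjusted limma p under 0.05 (summed RPKM 17.6 and 17.6 against 5.64 and 6.94), while Mrc1, Lyve1, Cd163, F13a1 and Cbr2 were too low to test. The 1 tested monocyte marker and the 4 tested ependymal or choroid plexus markers did not pass limma, with 0 of these 5 under an unadjusted p of 0.05. No marker of any list was at 0 in all 4 libraries.

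**Figure D4:**
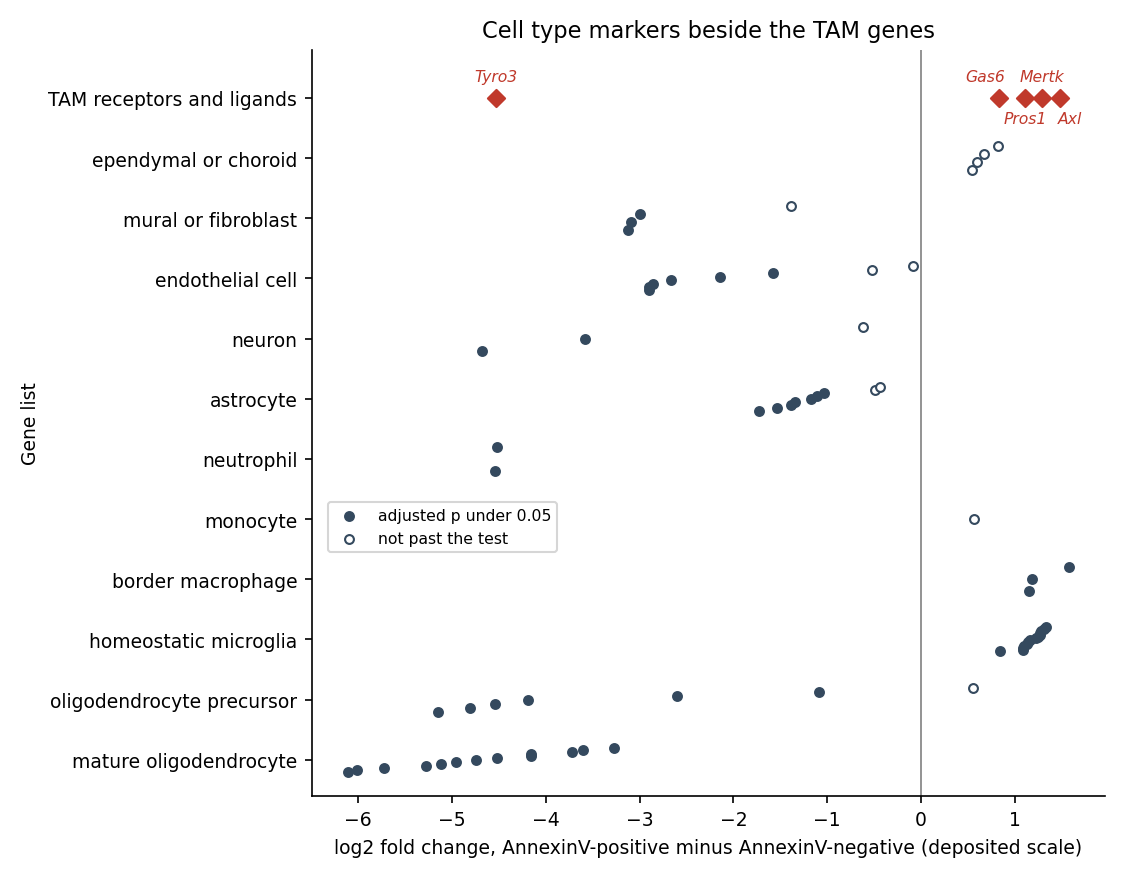
log2 fold change on the deposited scale (horizontal axis) of each tested marker of 11 cell types, filled where the adjusted p was under 0.05, with the 5 TAM genes as red diamonds in the top row. Tyro3 at -4.53 lies within the spans of the tested mature oligodendrocyte, precursor, neuron (3 of 10) and neutrophil (2 of 6) markers. Mertk and Pros1 lie within the span of the homeostatic microglia markers, whose median is 1.196, while Axl lies above that span and Gas6 below it.

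For each gene, the 3 genes with the most similar profile over the 4 libraries were found by the distance between log2(RPKM + 0.1) values after each gene was centred on its own mean. With only 4 libraries these distances are a description. Closest to Mertk were Lcp1, an actin-bundling protein of leukocytes (distance 0.0349), Pik3r6, a regulatory subunit of phosphoinositide 3-kinase (0.0402), and Fmnl3, a formin (0.0480). Closest to Axl were the GTPase-activating proteins Tagap (0.0911) and Arhgap30 (0.0948) and the complement component C2 (0.111). Closest to Pros1 were Ppp1r3b, a glycogen-targeting phosphatase subunit (0.0352), and the tyrosine kinases Tyk2 (0.0352) and Syk (0.0366).

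Gas6 was closest to Gdap10 (0.0356), the lipoprotein receptor Scarb1 (0.0710) and the sulfotransferase Chst1 (0.0824). Tyro3 had no such near neighbour: its closest genes were Glrb, the beta subunit of the glycine receptor (0.349), Moxd1 (0.352) and Bcas1, a gene of newly myelinating oligodendrocytes (0.355). Bcas1 was at an RPKM of 1.15 and 0.432 against 16.5 and 13.2. Within 0.2, with the same genes left out, there were 243 genes for Pros1, 100 for Mertk, 36 for Axl, 31 for Gas6 and 0 for Tyro3. The distance was not scaled to the size of a gene's fold change or to its noise at low reads. These counts therefore do not show that the profile of Tyro3 is particular. Between members, Mertk was 0.198 from Pros1 and 0.201 from Axl, and 5.89 from Tyro3.

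Of 63 other genes of the TAM pathway, in 7 lists, 53 were tested. On the deposited scale 23 rose and 7 fell, with a median log2 fold change of 0.61, beside 30.8% and 9.26% of all genes and their median of 0.45. Without AnnexinV-positive replicate 1, 13 rose. On the TPM scale 1 rose and 11 fell (all genes 1.03% and 19.1%), with a median of -0.17 against -0.32 for all genes tested. Centred on the microglia list 1 rose and 24 fell (all genes 0.201% and 49.4%).

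Other proteins described as TAM ligands or as a bridge from phosphatidylserine to integrins went in both directions. Lgals3, a galectin described as a Mertk ligand that activated microglia raise, was at an RPKM of 55.8 and 64.1 in AnnexinV-positive and 19.3 and 15.6 in AnnexinV-negative libraries. Its libraries did not overlap. It rose by 1.78 (SE 0.19, limma adjusted p 0.00158), by 1.005 on the TPM scale (limma adjusted p 0.00897) and by 0.66 when centred on the microglia list (limma adjusted p 0.0452), and was the pathway gene that rose on all of these scales. Tub, a tubby protein described as a Mertk ligand, fell from 2.47 and 2.86 to 0.163 and 0.107 RPKM, a log2 fold change of -3.56 (limma adjusted p 7.16e-04). Mfge8, which links phosphatidylserine to integrins, was at 17.6 and 22.8 against 47.4 and 33.1 RPKM and fell by 0.98 (limma adjusted p 0.0187). Tulp1 did not reach the RPKM minimum.

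The vitamin K cycle supplies the carboxylation that Gas6 and protein S need. Of 5 tested genes 1 rose and 0 fell on the deposited scale (limma, all genes 30.8% and 9.26%). On the TPM scale 0 rose and 2 fell (limma, all genes 1.03% and 19.1%). At an unadjusted limma p under 0.05, 2 were higher and 0 lower on the deposited scale, and 0 higher and 2 lower in TPM. The gene that rose was Vkorc1, the reductase that warfarin inhibits, at 32.3 and 42.8 against 20.4 and 17.3 RPKM (log2 fold change 0.98, limma adjusted p 0.0123, but 0.20 on the TPM scale with a limma adjusted p of 0.468). The carboxylase Ggcx was at 0.68 (limma adjusted p 0.0609).

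TAM receptors are shed from the cell surface by metalloproteases. Of 5 tested genes of shedding and its control 2 rose and 1 fell (all genes 30.8% and 9.26%). Those higher were the protease Adam17 (0.95) and its partner Rhbdf2 (1.39). The metalloprotease inhibitor Timp3 (-2.21, limma adjusted p 0.00270) fell from 7.66 and 6.04 to 1.80 and 1.07 RPKM. On the TPM scale Adam17 (0.18) and Rhbdf2 (0.63) did not pass and Timp3 (-3.05) did. Among transcription factors known to control Mertk or Axl, 4 of 6 tested rose and 0 fell (limma, all genes 30.8% and 9.26%). On the TPM scale 0 rose and 1 fell (limma, all genes 1.03% and 19.1%). At an unadjusted limma p under 0.05, 4 were higher and 1 lower on the deposited scale, and 2 higher and 2 lower in TPM. Those that rose included Maf (1.30), a factor of macrophage identity, and the retinoid X receptors Rxra (1.08) and Rxrb (0.62). The liver X receptor Nr1h3 and Pparg did not reach the RPKM minimum.

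**Figure D5:**
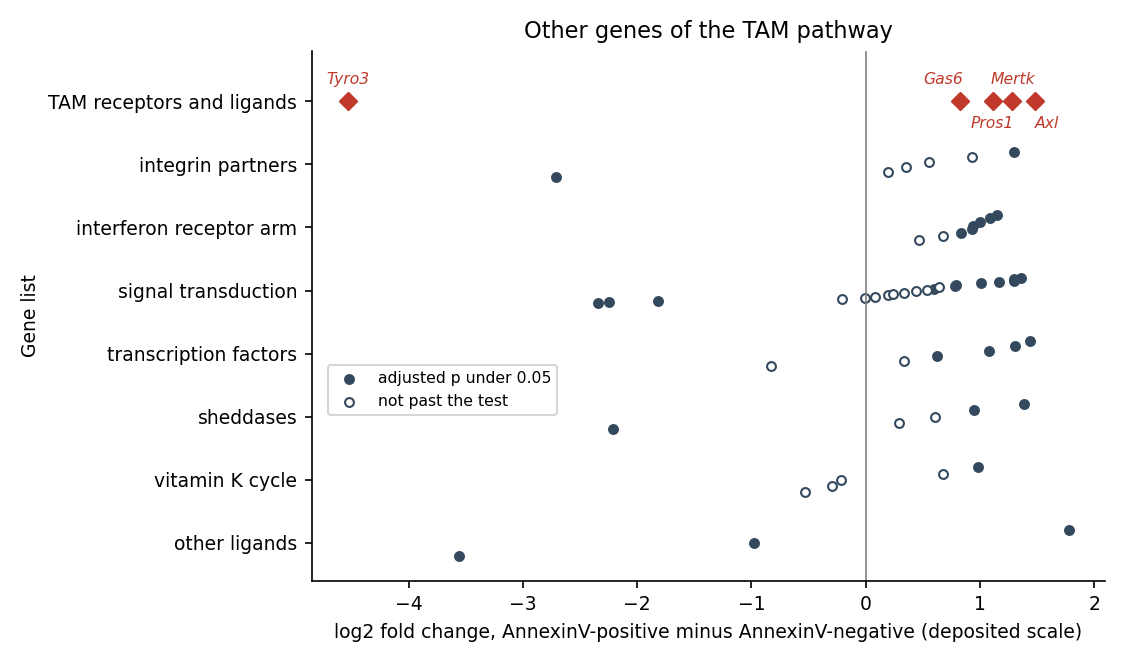
log2 fold change on the deposited scale (horizontal axis) of each tested gene in 7 lists of the TAM pathway, filled where the adjusted p was under 0.05, with the 5 TAM genes as red diamonds. Filled points to the right reach 1.78 (Lgals3) and those to the left -3.56 (Tub), and none reaches the -4.53 of Tyro3.

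In the signal transduction list 8 of 20 tested genes rose and 3 fell (limma, all genes 30.8% and 9.26%). On the TPM scale 0 rose and 4 fell (limma, all genes 1.03% and 19.1%), with 1 and 7 there at an unadjusted p under 0.05. The Src-family kinase Lyn was at 64.7 and 64.2 against 22.8 and 29.9 RPKM and rose by 1.30 (limma adjusted p 0.00435). The adaptor Nck2 (-2.34), the tensin Tns2 (-2.25) and the focal adhesion kinase Ptk2 (-1.82) fell, and fell also on the TPM scale (-3.40, -3.27 and -2.67). Of the integrin and adhesion partners, Itgb5, the beta subunit that pairs with alpha-v in the uptake of dying cells, rose by 1.30, from 164 and 243 to 516 and 466 RPKM (0.52 on the TPM scale, where it did not pass). Bcar1, an adaptor of focal adhesions, fell by 2.71, and Itgb3 was at 0.93 (limma adjusted p 0.0506). Thus 1 of 6 tested rose and 1 fell (limma, all genes 30.8% and 9.26%). On the TPM scale 0 rose and 1 fell (limma, all genes 1.03% and 19.1%), with 0 and 2 there at an unadjusted p under 0.05.

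TAM signalling is known to act through the type I interferon receptor to induce SOCS proteins that end inflammatory signalling. In this list 6 of 8 tested genes rose and 0 fell (limma, all genes 30.8% and 9.26%). On the TPM scale 0 passed in either direction (limma, all genes 1.03% and 19.1%). At an unadjusted limma p under 0.05, 7 were higher and 0 lower on the deposited scale, and 0 in either direction in TPM. The receptor chain Ifnar2 was at 30.6 and 33.6 against 13.4 and 15.5 RPKM (log2 fold change 1.15, limma adjusted p 0.00489), and the kinase Jak1 rose by 0.998. Rescaled to TPM they were at 0.37 and 0.23. Twist1 and Twist2, repressors known to act below Axl, did not reach the RPKM minimum.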

How the data were processed

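RNA was measured in 2 AnnexinV-positive and 2 AnnexinV-negative libraries, grouped by their titles. The aligner was GSNAP and the build mm10, per the submitters' processing notes. No source used here names the counter, the annotation or the gene lengths. The deposited files hold 1 value per gene with no named unit. They were read as RPKM scaled by the authors, because 79.6% to 83.6% of values under 100 reads came out as whole reads, to within 0.01, once multiplied by exonic length in GENCODE vM21 and divided by 1 constant per library. GENCODE vM21 also gave symbols and coordinates. The unit thus rests on the values themselves.

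In R 4.3.3, limma 3.58.1 with its trend option compared log2(RPKM + 0.1) between groups for genes that reached 1 RPKM in 2 or more libraries, without covariates, and adjusted over all 10927 genes. TPM was obtained by dividing each value by the RPKM sum of its library. The steps were tested on simulated data. Genes, lists and tests were chosen with earlier results of these data known. Named were the 5 genes, the 3 nearest profiles of each, and the 3 genes of each pathway list with the smallest p, some of which are not reported here. Others, such as Rxrb, Ptk2 and genes under the RPKM minimum, were named after their values were seen. Alternatives were other pseudocounts, filters, scales, no trend, a replicate block and leaving out each library. Promoter sequences came from RefSeq (GRCm38.p6), in which all 5 genes matched.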

Additional observations from a re-analysis of the deposited data

How the results depend on the processing

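Tyro3 kept its direction and passed under all 12 alternatives that tested it, between -5.99 and -2.44 on the log2 scale; with an RPKM of at least 1 asked of all 4 libraries it was not tested. Mertk, Axl and Pros1 passed under 11 of 13 each. On the TPM scale Mertk (0.51), Axl (0.71), Pros1 (0.34) and Gas6 (0.052) did not pass. Centred on the homeostatic microglia list Mertk (0.16) and Axl (0.36) did not pass and Pros1 (-0.0097) and Gas6 (-0.29) changed sign. Gas6, at 0.83 on the deposited scale, also did not pass with libraries centred on the genes tested (0.52), or at the same 0.83 with no filter on low values (limma adjusted p 0.118) and with no intensity trend (limma adjusted p 0.0666). Leaving out 1 library at a time, with the genes tested held, gave 0.95 to 1.62 for Mertk, 1.14 to 1.83 for Axl, -5.09 to -3.98 for Tyro3, 0.48 to 1.17 for Gas6 and 0.85 to 1.38 for Pros1, of which 2 of the 4 values of Gas6 did not pass. The same left out gave 2084 to 4416 genes called, against 4376 with all libraries (2572 without AnnexinV-positive replicate 1 and 2084 without replicate 2), 13 to 28 pathway genes higher and 6 to 8 lower, and a Gas6 share of the ligands from -9.36 to 0.329 percentage points (AnnexinV-positive minus AnnexinV-negative). In all, 2317 genes were called when centred on the genes tested and 2204 on the TPM scale. Pathway genes called higher numbered 11 centred on the genes tested, 1 on the TPM scale and 1 centred on the microglia list. The shares of all genes were 10.4%, 1.03% and 0.201%. Those lower numbered 2 with an RPKM of at least 1 in all libraries (all genes 322 of 8733). They numbered 11 on the TPM scale and 24 centred on the microglia list (all genes 19.1% and 49.4%). The cause of these differences was not tested.

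The labels do not say that a replicate number marks a shared animal or day. The replicate differences of the 2 groups had a correlation of r = -0.21 across 10927 genes, which are not independent. A correlation over all genes cannot show whether replicates were paired. Markers of ependymal and choroid plexus cells differed in the same direction in both groups. Their summed RPKM, most of it from the single gene Ttr, was 399 and 375 in replicate 1 and 59.0 and 20.9 in replicate 2. With the replicate block 3400 genes were called, and all 5 genes kept their calls (limma adjusted p between 6.61e-06 for Tyro3 and 0.0271 for Gas6). The about 29.5 and 144 reads of Tyro3 in AnnexinV-positive libraries limit the precision of its fold change.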

Other observations

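Markers of ependymal and choroid plexus cells, the cells that line the ventricles and make cerebrospinal fluid, differed more between replicates than between groups. Their summed RPKM was 399 in AnnexinV-positive replicate 1 and 375 in AnnexinV-negative replicate 1, against 59.0 and 20.9 in replicate 2 of each group. Most of each sum was the single gene Ttr, at 383 and 360 RPKM in replicate 1 and 54.2 and 18.4 in replicate 2. Of the 5 TAM genes, Mertk, Axl and Pros1 were higher in replicate 1 of the AnnexinV-positive pair and lower in replicate 1 of the AnnexinV-negative pair, and Gas6 was higher in replicate 2 of both pairs (143 against 108 and 88.8 against 55.1 RPKM). Tyro3, like these markers, was higher in replicate 1 of both pairs (0.234 against 0.0553 and 5.66 against 4.73 RPKM).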
